A study of Cyanidioschyzon merolae with 8 samples.

Results

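Nitrogen uptake and assimilation was followed through 6 nuclear genes of the unicellular red alga Cyanidioschyzon merolae, chosen by gene ID and role from the 5091 gene IDs of the authors' deposited table. They are CMG018C (nitrate transporter), CMT526C (ammonium transporter), CMG019C (nitrate reductase), CMG021C (nitrite reductase), CMI233C (glutamine synthetase) and CMJ282C (the regulator MYB1). Neither the table nor the reference annotation used here names any gene by function, so these roles come from the rule that chose the genes. The 8 RNA-seq libraries fall into 4 groups of 2 biological replicates of wild-type strain 10D. These are cells given blue light, the dark control of that experiment, cells given red light, and a separate dark control for the red light experiment. All cells were first grown at pH 2.3 and 42 °C, lit without pause at 100 µmol m-2 s-1, in a medium whose nitrogen source the labels do not state. The cells of the blue light experiment were kept 36 h in darkness, and the blue light cells were then lit for 30 min at 15 µmol m-2 s-1. In the red light experiment cells were dark-kept before 30 min of red light, but the labels state neither their time in darkness nor the red light intensity. The light is listed as measured at 365 nm for the blue light cells and at 630 nm for the red light cells. The dark control of the blue light experiment is listed with the same 36 h and no separate time. That of the red light experiment is listed with no dark time.

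Algae take up nitrate through a membrane transporter, reduce it to nitrite with nitrate reductase, and reduce nitrite to ammonium with nitrite reductase. Ammonium, whether made in this way or imported by an ammonium transporter, is joined to glutamate by glutamine synthetase, the step that brings it into organic form. In C. merolae these genes are known to be switched on when nitrogen runs short, and MYB1, a MYB-type transcription factor, is known as the activator they need for it.

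Each level below is the authors' FPKM, fragments scaled to transcript length and library size, with the replicates of a condition already combined in 1 value. The spread between replicates cannot therefore be given, and the only test is that of the authors, taken as passed where their q-value was under 0.05. The depth of the libraries could not be read from the values. Across the 4 conditions the median ID had 92.6 to 104 FPKM. As the RNA came from bulk culture, fewer cells of a type and less RNA per cell cannot be told apart.

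The transporters, both reductases and glutamine synthetase all had a higher FPKM in lit cells than in dark cells in both experiments, though not every difference was tested or passed, whereas MYB1 was higher only under red light and passed the test under neither light. Under blue light 3 of the 6 genes rose, CMG021C, CMT526C and CMI233C, and 0 fell. The authors had tested 5 of them, and 22.2% of all tested genes rose in that comparison. Under red light 3 rose, CMG018C, CMT526C and CMI233C, and 0 fell among 4 tested, where 14.9% of all tested genes rose. At an unadjusted p-value under 0.05 in the authors' deposited table, 4 were higher and 0 lower under blue light, where 25.6% of all tested genes were higher and 23.5% lower by that measure. Under red light 3 were higher and 0 lower, where 18.6% of all tested genes were higher and 33.4% lower. CMT526C and CMI233C rose under both lights, out of 4 members tested in both comparisons, as did 10.6% of all genes tested in both. The genes without a test were nitrate reductase in both comparisons and nitrite reductase under red light.

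Over all 6 genes, tested or not, the median log2 ratio of light over dark was 3.38 under blue light and 1.34 under red light, with 1 FPKM added to every value so that a ratio exists for each gene. The same medians over all IDs were 0 and -0.19. Of the 6 genes, 5 had a higher FPKM in blue light than in its dark control, and 6 in red light than in its own. In the comparisons as a whole, 49.6% and 39.8% of tested genes stood higher under blue and under red light. The median tested gene had a log2 ratio of -0.26 in the red comparison, so rises there stand beside a negative median. FPKM is scaled to library size, and whether transcripts fell in general was not tested.

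**Figure D1:**
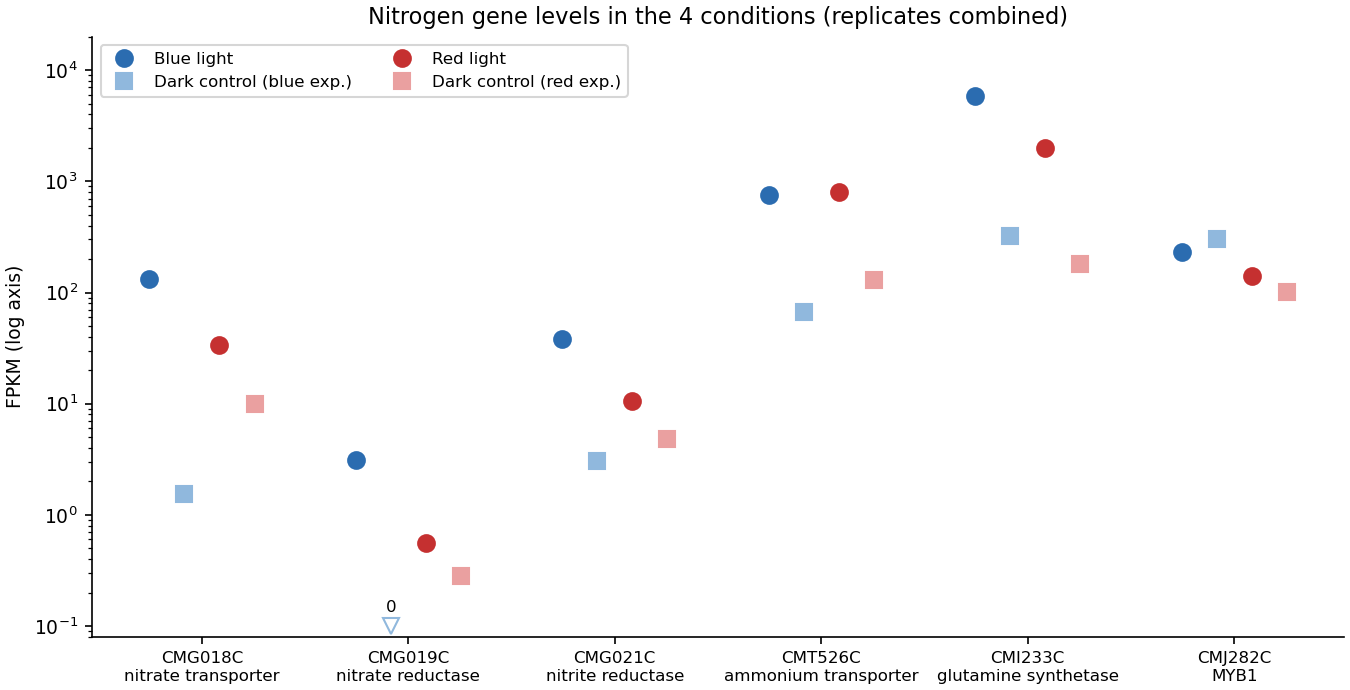
FPKM of each of the 6 nitrogen genes (log axis) in blue light, its dark control, red light and its dark control, 1 point per condition with replicates combined by the authors. CMI233C reaches 5809 FPKM in blue light, while CMG019C stays at or below 3.12 FPKM and is listed at 0 in the blue experiment's dark control (open triangle).

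The nitrate transporter CMG018C lies on chromosome 7 at 49583 to 51291, in the coordinates of the authors' deposited table, which names no genome build. It stood at 132 FPKM in blue light and 1.54 FPKM in the dark control. In the red experiment it stood at 33.9 FPKM in red light and 9.86 FPKM in the dark control. The gene was thus nearly silent in the dark of the blue experiment and highest in blue light, and lit values exceeded dark values in both experiments.

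Its ratio under blue light was 85.3-fold, 6.41 on the log2 scale, which is rank 9 among the tested genes that have a ratio. The authors' deposited table gives p = 0.0323 and q = 0.0821 for it, so it did not pass the threshold there. Under red light it rose 3.44-fold, or 1.78 on the log2 scale, and the authors' deposited table lists q = 0.00424. Centred on the median tested gene, the red light log2 ratio was 2.04.

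The ammonium transporter CMT526C, on chromosome 20 at 1318617 to 1320331, stood at 760 FPKM in blue light and 67.0 FPKM in its dark control. It stood at 803 FPKM in red light and 129 FPKM in the dark control of that experiment. Its lit levels were almost the same under both lights, and the difference between the ratios came with the dark values.

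CMT526C rose 11.3-fold under blue light, a log2 ratio of 3.50, and 6.21-fold under red light, a log2 ratio of 2.63. Both have q = 0.00045 in the authors' deposited table, the smallest value there, which other genes share. Centred on the median tested gene, its red light log2 ratio was 2.89. The gene moved up the order of all IDs: 94.2% of IDs had a lower FPKM in blue light, against 38.9% in its dark control. In the red experiment these shares were 97.5% in red light and 58.2% in the dark control. The transporter for ammonium stood above that for nitrate in every condition, by 5.78-fold in blue light, 43.4-fold in its dark control, 23.7-fold in red light and 13.1-fold in its dark control.

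Nitrate reductase CMG019C, on chromosome 7 at 52253 to 55109, was the lowest of the 6 genes in all 4 conditions. It had 3.12 FPKM in blue light and was listed at 0 in the dark control. The red experiment gave 0.55 FPKM in red light and 0.28 FPKM in the dark control. Lit values were above dark values in both experiments, but the authors made no test of this gene, and no ratio can be formed against a value of 0.

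Other IDs without a test were low as well. Over untested IDs the median of the light and dark mean was 1.30 FPKM in the blue and 1.76 FPKM in the red comparison, against 112 and 121 FPKM for tested ones. For the red experiment the log2 ratio was 0.96, or 1.95-fold, which became 0.28 with 1 FPKM added to both values.

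Nitrite reductase CMG021C, on chromosome 7 at 56341 to 58382, stood at 38.3 FPKM in blue light and 3.06 FPKM in the dark control. It had 10.6 FPKM in red light and 4.78 FPKM in the red experiment's dark control. As for the nitrate transporter, blue light gave the highest value and the lit values exceeded the dark ones.

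CMG021C rose 12.5-fold under blue light, or 3.64 on the log2 scale, and the authors' deposited table lists q = 0.00402. Its log2 ratio under red light was 1.15, or 2.21-fold, without a test. In the reference annotation ASM9120v1 another gene, CMG022C, lies inside CMG021C, and the deposited table gives both the same locus. CMG022C was listed at 2.13 FPKM in blue light, 0.00016 FPKM in its dark control, 0.97 FPKM in red light and 0 in its dark control, with no test. No strand-marking step is stated, so reads of this stretch cannot be told apart between the 2 genes.

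The 3 nitrate genes lie next to each other on chromosome 7, with 0 other IDs of the table between them and gaps of 962 and 1232 bp. Their summed level was 173 FPKM in blue light and 4.61 FPKM in its dark control, and 45.0 FPKM in red light and 14.9 FPKM in its dark control. Adjacent as they are, they were not at like levels. The FPKM of the transporter over that of nitrite reductase was 3.44 in blue light and 0.50 in its dark control, and 3.20 in red light and 2.06 in its dark control. Nitrite reductase in turn exceeded nitrate reductase 12.3-fold in blue light, 19.1-fold in red light and 16.8-fold in the red experiment's dark control.

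Glutamine synthetase CMI233C, on chromosome 9 at 630481 to 631579, was the most abundant of the 6 transcripts in every condition. It stood at 5809 FPKM in blue light and 324 FPKM in its dark control. In the red experiment it stood at 2000 FPKM in red light and 179 FPKM in the dark control. Both lit values were far above both dark values.

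CMI233C rose 17.9-fold under blue light, a log2 ratio of 4.16, and 11.2-fold under red light, a log2 ratio of 3.48. Both have q = 0.00045 in the authors' deposited table. Centred on the median tested gene, the red light log2 ratio was 3.74. Among tested genes with a ratio, these rises held rank 70 under blue light and rank 58 under red light. By level the transcript held rank 7 of 5091 IDs in blue light against rank 659 in its dark control, and rank 28 in red light against rank 1470 in its dark control. It made up 0.5% of the summed FPKM in blue light and 0.028% in the dark control, and 0.21% in red light and 0.019% in its dark control.

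MYB1, CMJ282C, on chromosome 10 at 747118 to 748691, stood at 234 FPKM in blue light and 304 FPKM in its dark control. It stood at 142 FPKM in red light and 101 FPKM in the red experiment's dark control. The lit value was the lower of the pair in the blue and the higher in the red experiment, and both values of the blue experiment exceeded both of the red.

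The log2 ratio of CMJ282C was -0.38 under blue light with q = 0.399, and 0.48 under red light with q = 0.159, by the authors' deposited table. Neither passed the threshold. Centred on the median tested gene they were -0.37 and 0.74. No error of a ratio is given, and no limit was worked out here on how large a change in MYB1 could have been missed. Among tested genes with a ratio, 34.9% had a lower one than CMJ282C under blue light and 75.9% under red light. For the other 4 genes with a ratio under blue light that share ran from 97.7% to 99.8%.

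**Figure D2:**
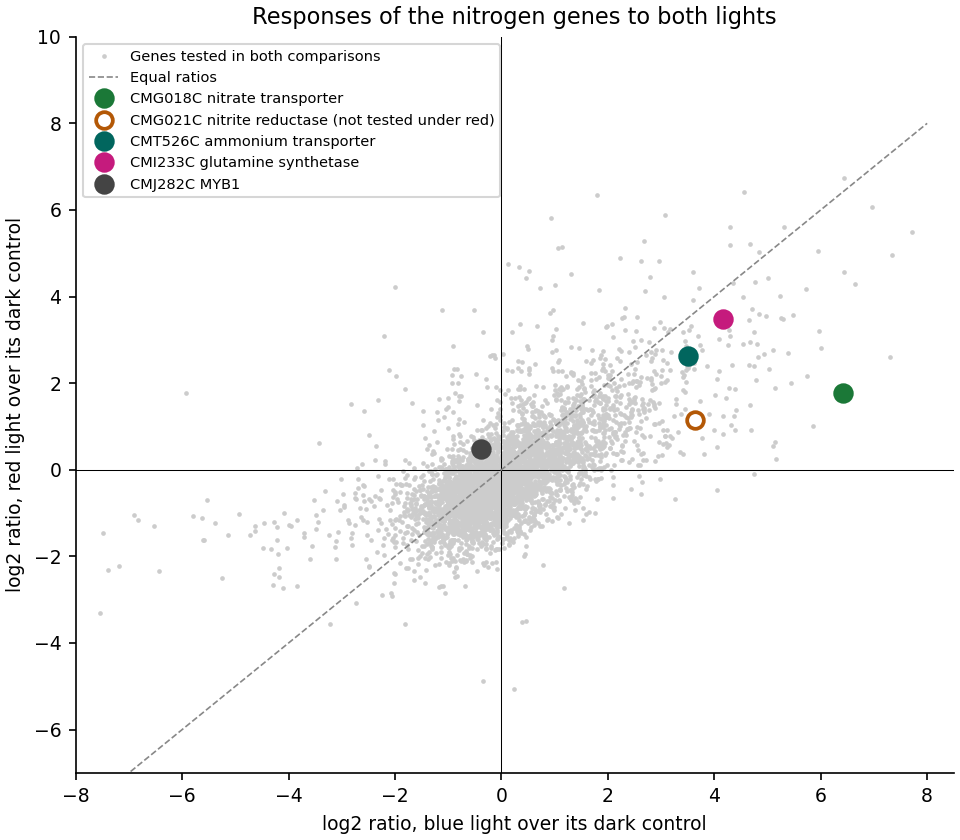
Log2 ratio of red light over its dark control (vertical) against log2 ratio of blue light over its dark control (horizontal) for 4390 genes tested in both comparisons (grey) and the 5 nitrogen genes with both ratios. CMG018C at 6.41 and 1.78 and CMG021C (open, not tested under red light) at 3.64 and 1.15 lie well below the line of equal ratios, CMT526C and CMI233C lie near it, and CMJ282C lies close to the origin.

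The order of the levels was the same in 3 of the 4 conditions. In both lit conditions and in the red experiment's dark control it ran, from high to low, CMI233C, CMT526C, CMJ282C, CMG018C, CMG021C and CMG019C. In the blue experiment's dark control CMJ282C stood above CMT526C, and CMG021C above CMG018C. With no spread per condition, neighbours in these orders cannot be said to differ, least of all CMI233C at 324 and CMJ282C at 304 FPKM in the blue experiment's dark control.

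**Figure D3:**
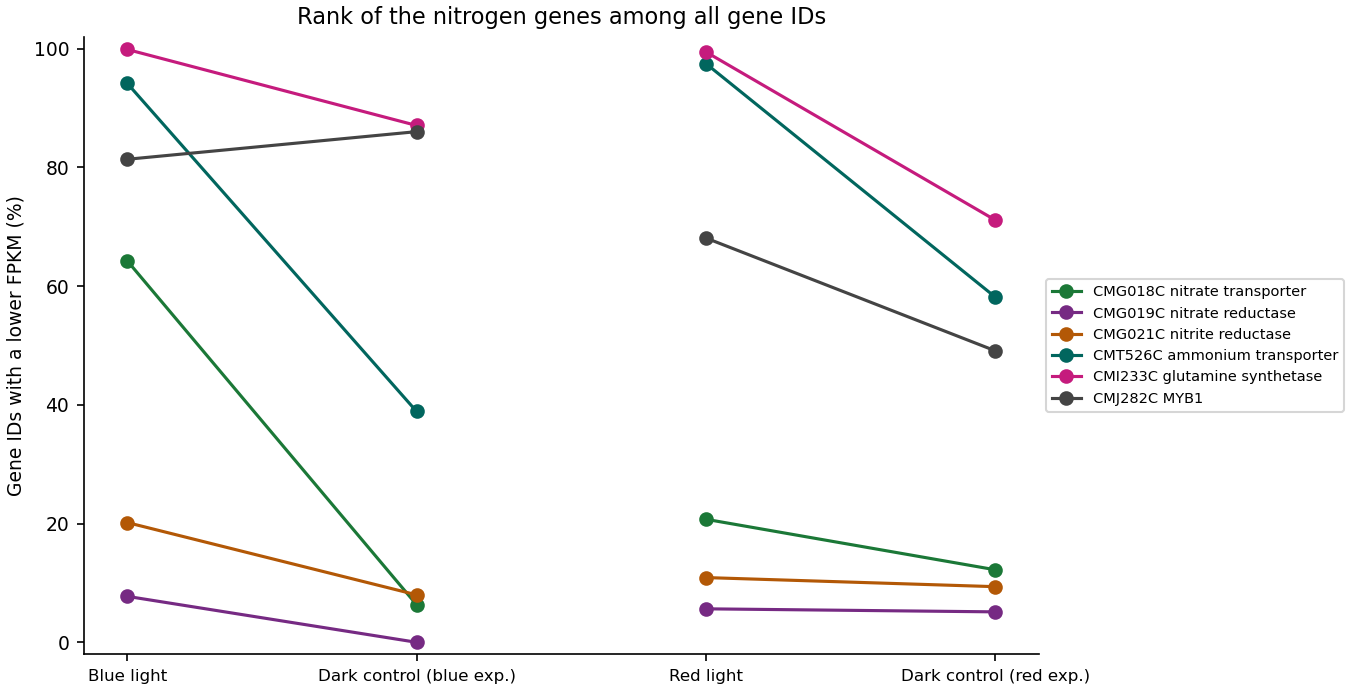
Percentage of the 5091 gene IDs with a lower FPKM than each nitrogen gene (vertical) in blue light, its dark control, red light and its dark control, with lines joining the conditions of 1 experiment. CMT526C stands at 94.2% in blue light against 38.9% in its dark control, CMG018C at 64.3% against 6.34%, and CMG019C stays below 10% throughout.

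Among members with both ratios, the size of the response to each light differed most for CMG018C and CMG021C. The red minus blue difference of log2 ratios was -4.63 for CMG018C and -2.50 for CMG021C. Of 4390 genes tested in both comparisons, 0.11% had a lower difference than CMG018C and 1.3% a lower one than CMG021C. It was -0.87 for CMT526C and -0.68 for CMI233C, with 21.9% and 28.7% of genes lower, and 0.86 for CMJ282C, with 89.9% lower. These differences have no test, and since the red light intensity is not given, they compare the responses at doses not known to match. Those of CMG018C and CMG021C also rest on low values in the blue experiment's dark control, 1.54 and 3.06 FPKM. CMG018C did not pass under blue light, CMG021C had no test under red light, and CMG019C has no such difference.

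For CMG018C and CMG021C part of the red minus blue difference lies in the lit cells. The log2 difference between red light and blue light was -1.96 for CMG018C, -2.49 for CMG019C, -1.85 for CMG021C and -1.54 for CMI233C. The nitrate genes and glutamine synthetase were therefore between 2.90-fold and 5.63-fold higher in blue light than in red light. At most 4.56% of genes tested in both comparisons had a lower difference than any of these 4, and the median gene stood at -0.17. CMT526C stood at 0.081 and CMJ282C at -0.72. The 5.63-fold is that of CMG019C, at only 3.12 FPKM against 0.55 FPKM. That gene had no test in either comparison and CMG021C had none under red light, so neither is among the genes it is set against. Whether the authors scaled the experiments together is not given, which limits each comparison between them.

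The dark controls were not alike for these genes either. The log2 difference, red minus blue dark control, was 2.68 for CMG018C, or 6.39-fold, and 99.4% of genes had a lower one. It was 0.64 for CMG021C, 0.95 for CMT526C and -0.85 for CMI233C. For CMJ282C it was -1.58, a level 2.99-fold higher in the blue experiment's dark control, with 6.22% of genes lower. These dark differences widened the red minus blue difference of ratios for CMG018C and CMG021C, and narrowed it for CMI233C. For CMT526C and CMJ282C the dark difference outweighed the lit one, so the difference of ratios took the opposite sign to the lit difference. The median gene differed by 0.18, and 24.0% of genes by at least 2-fold. None of these differences between experiments has a test.

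The genes next to the members were counted by position alone, taking 4 IDs on each side of each gene and leaving out the members themselves. Of these 32 neighbours, 27 were tested under blue light, where 10 rose and 1 fell, leaving 16 that passed in neither direction. The background there was 22.2% risen and 18.4% fallen of all tested genes. Under red light 27 were tested, 5 rose and 9 fell, leaving 13, against a background of 14.9% risen and 27.1% fallen. The median log2 ratio of the 32, with 1 FPKM added, was 0.23 under both lights.

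Fewer than 27 neighbours were tested in both comparisons, as those left untested were not all the same under each light. Past the threshold under both lights were 7 neighbours, a share not far from background, where 23.3% of all genes tested in both comparisons passed. They are unnamed by function in the files. Close to the nitrate genes, CMG015C rose under both lights, with 56.9 FPKM in blue light against 7.82 FPKM in its dark control and 37.7 FPKM in red light against 7.82 FPKM in its dark control. CMG027C, on the other side, rose under blue light with a log2 ratio of 1.54 and fell under red light with one of -1.16.

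Directly after the ammonium transporter, CMT527C rose under both lights, at 434 FPKM in blue light against 154 FPKM in its dark control and 313 FPKM in red light against 119 FPKM in its dark control. CMT530C, further along, had log2 ratios of 1.09 under blue and 2.53 under red light. The gene after glutamine synthetase, CMI234C, fell under both lights, with log2 ratios of -1.04 and -0.83. Near MYB1, CMJ276C had log2 ratios of 2.61 and 3.00 and CMJ277C of 1.58 and 1.02, under blue and red light in that order. The ID directly before CMJ282C, CMJ281C, did not pass under blue light and was not tested under red light. CMG016C, directly before the nitrate transporter, had 31.1 FPKM in blue light against 36.3 FPKM in its dark control, q = 0.591 in the authors' deposited table, and fell under red light with a log2 ratio of -1.07.

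**Figure D4:**
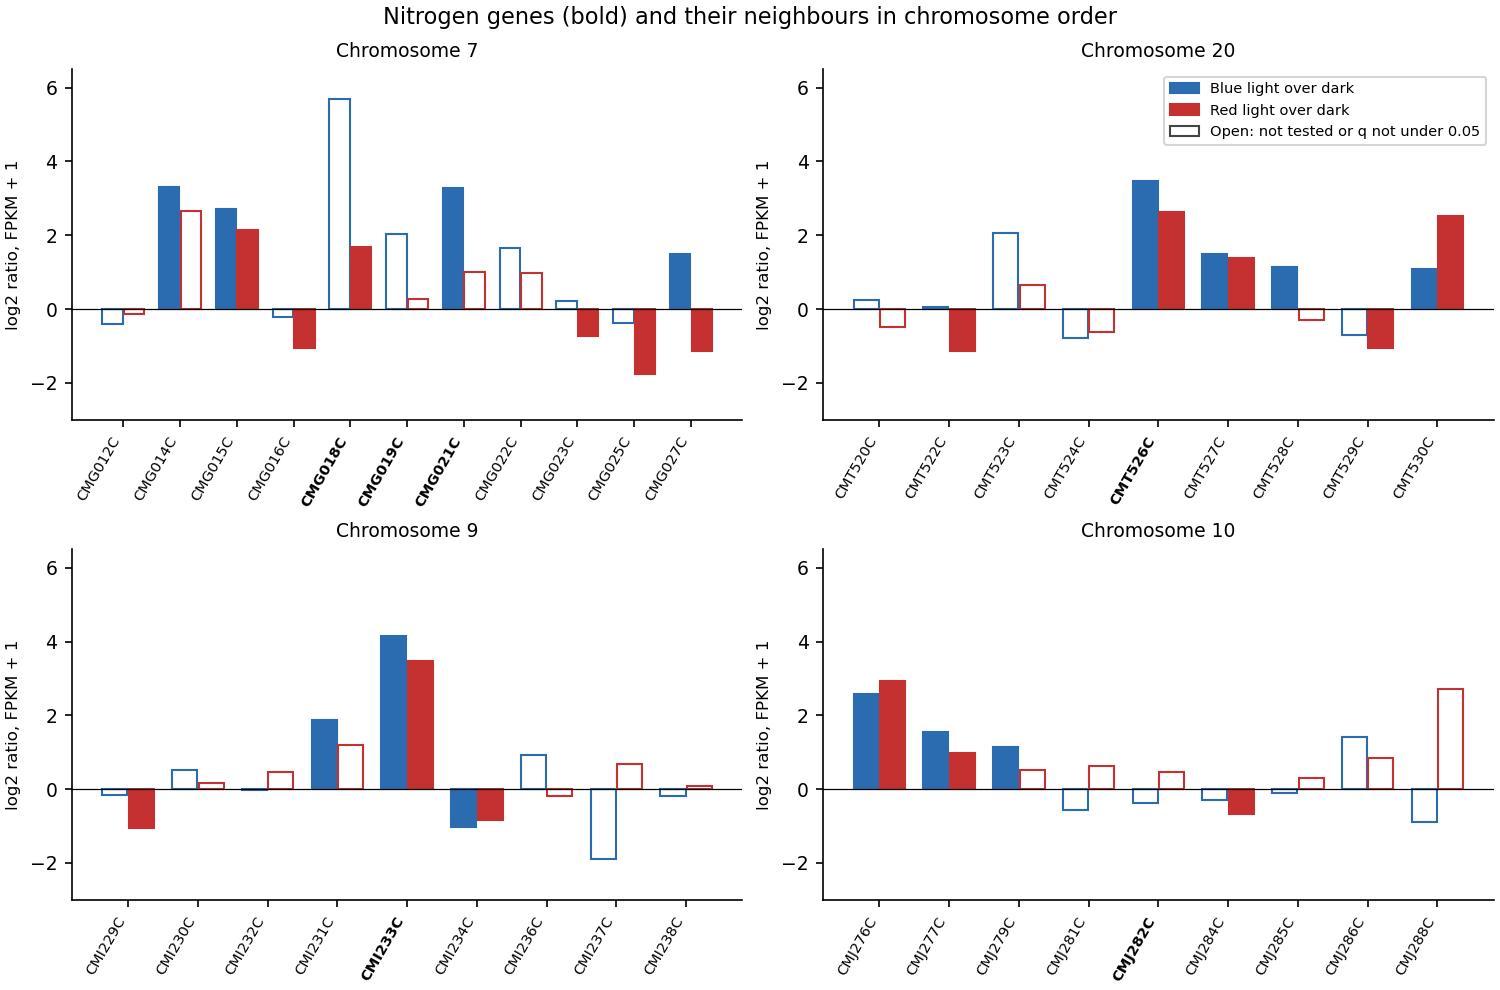
Log2 ratio of light over dark with 1 FPKM added (vertical) for the nitrogen genes (bold) and 4 neighbouring IDs on each side, in chromosome order, for blue and red light; filled bars passed the authors' q-value under 0.05. CMT526C and CMI233C stand above the IDs on either side under both lights, while around CMJ282C the IDs that rose are CMJ276C, CMJ277C and, under blue light, CMJ279C.

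Genes with a like course over the 4 conditions were looked for by the Euclidean distance between log2 FPKM values, each gene centred on its own mean, among the 4390 genes tested in both comparisons and above 0 in every condition. CMG019C could not be included, since 1 of its values is 0. With only 4 points per gene the distances describe these conditions and have no test. The smallest distances of CMG018C were 0.71 to CMM306C, 0.80 to CME023C and 0.88 to CME120C. CMM306C repeats the pattern, with 171 FPKM in blue light against 2.18 FPKM in its dark control, and 76.3 FPKM in red light against 21.2 FPKM in its dark control. Like CMG018C it passed under red light but not under blue light, where the authors' deposited table lists q = 0.167.

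For CMG021C the nearest genes were CMM274C at 0.23, CMM051C at 0.43 and CMN074C at 0.46. CMM274C had 121 FPKM in blue light against 11.2 FPKM in its dark control, and 39.4 FPKM in red light against 15.0 FPKM in its dark control. For CMT526C they were CMV135C at 0.39, which lies on the chloroplast genome, CMM081C at 0.50 and CMG086C at 0.53. For CMI233C they were CML276C at 0.44, CMB021C at 0.44 and CMS031C at 0.48. CMB021C is also an abundant transcript, with 2957 FPKM in blue light against 155 FPKM in its dark control and 728 FPKM in red light against 98.1 FPKM in its dark control. It did not pass under red light, with q = 0.0626 in the authors' deposited table. For CMJ282C they were CMP074C at 0.11, CMJ057C at 0.13 and CMS141C at 0.14.

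The other members were set in the same order of distances. For CMG018C the nearest other member was CMT526C at 2.15, and 1.12% of the genes compared were nearer. For CMG021C it was CMT526C at 1.54, with 6.83% of genes nearer, and from the side of CMT526C 2.94% were nearer than CMG021C. For CMI233C it was CMG021C at 1.79, with 3.08% nearer. CMG018C and CMG021C, which lie in the same chromosome group, stood 2.23 apart. CMJ282C was the farthest from every other member with a distance, at 2.93 to 5.12, and 93.4% of genes were nearer to it than its nearest member.

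**Figure D5:**
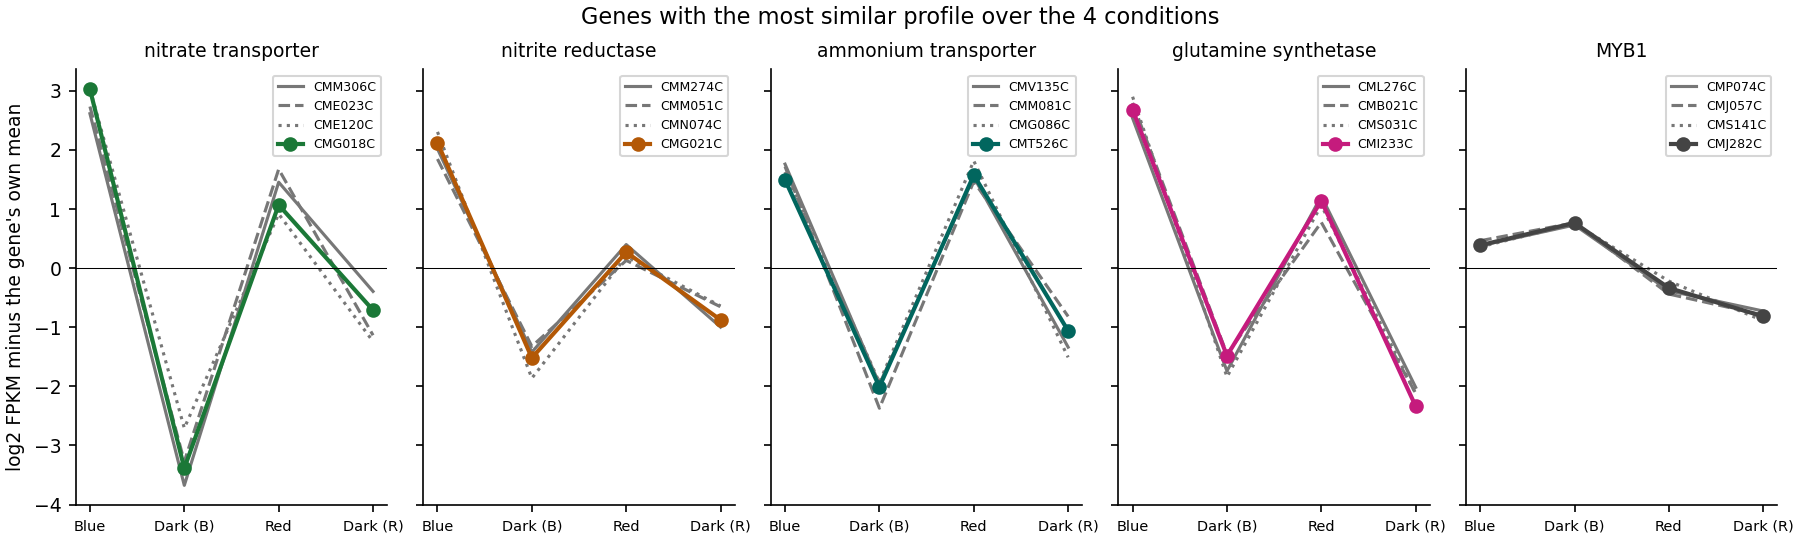
Log2 FPKM minus the gene's own mean over the 4 conditions (vertical) for 5 nitrogen genes (coloured) and the 3 genes nearest to each (grey), in blue light, its dark control, Dark (B), red light and its dark control, Dark (R). CMG018C, CMG021C, CMT526C and CMI233C are higher in light than in the dark of the same experiment, while CMJ282C and its 3 nearest genes stand higher in the blue experiment than in the red one, lit or dark.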

How the data were processed

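RNA was selected on oligo(dT) beads and sequenced as 75 bp read pairs on a MiSeq, per the labels' protocols. The tools are, per the submitters' processing notes, Cuffdiff, TopHat and TopHat2 2.0.5, Trimmomatic 0.32 and FastQC 0.11.5. No build or annotation is named in the sources used here. The authors deposited FPKM with the replicates of each condition combined, and their p-value and q-value per gene and comparison.

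Log2 ratios of light over dark were computed here from the deposited FPKM without pseudocount unless stated. The members and lists were chosen with earlier results of these data known. Genes named are the 6 members, neighbours past the threshold under both lights, and the 3 nearest profiles per member; CMG016C, CMG022C, CMJ279C, CMJ281C and CMT529C were added after their values were seen. A list by function words was void, as no descriptions are given. Coding lengths came from RefSeq ASM9120v1, by locus tag for 4752 IDs and all 6 members. Low FPKM were searched for whole steps: of 300 per condition, 27.0% to 27.7% came within 0.1 of one at the best of many step sizes tried. As each value combines replicates, whole steps need not show at any depth. The search therefore could not settle depth, which is unknown. Alternatives were the threshold 0.01, Benjamini-Hochberg values within a comparison with and without a minimum mean of 10 FPKM, a pseudocount of 1 FPKM, centring, and subtraction of the median of 200 genes nearest in length. The code was tested on simulated data. Python 3.11.15, numpy 2.4.6, pandas 2.3.3, scipy 1.17.1 and matplotlib 3.10.9 were used.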

Additional observations from a re-analysis of the deposited data

How the results depend on the processing

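The counts of members that rose or fell were the same at a q-value threshold of 0.01 and with Benjamini-Hochberg values taken within a comparison, with or without a minimum mean of 10 FPKM. For CMG018C under blue light the adjusted p ran from 0.0706 to 0.0821 over these alternatives, based on the authors' deposited table. For single members, 27 repeats with a stricter threshold or recalculated adjusted p kept their side of the threshold. A further 48 recomputed ratios or differences kept their sign and have no new test. The log2 ratio ran from 5.70 to 6.42 for CMG018C under blue light and from 1.68 to 2.20 under red light. For CMG019C under red light it ran from 0.28, with 1 FPKM added, to 1.72, corrected for coding length. The red minus blue difference ran from -4.63 to -4.02 for CMG018C and from -0.87 to -0.46 for CMT526C. Without CMG021C, whose locus holds a further gene, 2 members rose under blue light, an alternative chosen after seeing the data. With Benjamini-Hochberg values within the comparison, also chosen after seeing the data for this list, 2 neighbours fell under blue light in place of 1, because CMT529C then passed. By the same adjustment 10 rose under blue light, and 6 rose and 9 fell under red light, where the reported counts are 10, 5 and 9. At a threshold of 0.01, 7 neighbours rose and 1 fell under blue light, and 4 rose and 6 fell under red light. No paired analysis was possible because the deposited table holds 1 value per condition and no values per replicate; leaving out replicates was not possible for the same reason. Depth is unknown, so no limit can be given for CMG019C, listed at 0.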
